A study of Mus musculus with 4 samples.

Results

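Gamma delta T cells of the mouse spleen were taken as barcodes with at least 2 UMIs of Trdc, the constant gene of the delta receptor chain, and at least 2 UMIs over Cd3d, Cd3e and Cd3g, which encode subunits of the CD3 signalling complex. They also had no UMI of Cd4 or Cd8b1 and at most 1 UMI over the B cell genes Cd79a and Ms4a1. A UMI is a tag that counts each captured RNA molecule once. The rule found 229 cells, 84 aged and 145 young, among 12548 spleen barcodes with at least 500 UMIs, at least 250 genes and at most 10% mitochondrial UMIs. The whole series holds 35204 such barcodes.

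The study made 4 single-cell libraries from aged and young mouse brain and spleen, each from a sort for strong CD45, the surface protein common to leukocytes. The groups compared here are aged spleen and young spleen, with 1 library each, so no result below has a replicate check. Numerical ages, strain, sex and mice pooled per library are not known from the labels. The labels list for every library a tamoxifen injection some weeks before tissues were taken to look for tdTomato-positive natural killer (NK) cells, and they call the sorted cells neuroblasts. They do not say which genotype these mice carried. All intervals are 95% intervals for counting error only, and they do not cover the spread between mice or between libraries.

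Gamma delta T cells carry a T cell receptor made of a gamma and a delta chain in place of the alpha and beta chains of CD4 and CD8 T cells. In the spleen they are a minority of T cells. Most of those described there belong either to a type 1 programme, with interferon gamma, the transcription factors T-bet and Eomes, Ly6C2 and receptors shared with NK cells, or to a type 17 programme, with the interleukin 23 receptor, interleukin 17 and the scavenger receptor Cd163l1.

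The gamma chain has several constant genes, and the choice among them could not be read with equal certainty. Per GENCODE M21 on GRCm38, Tcrg-C1 lies at chr13:19214103-19217024 on the plus strand, Tcrg-C2 at chr13:19304649-19307551 on the minus strand and Tcrg-C4 at chr13:19344558-19352756 on the plus strand. Trdc lies at chr14:54142851-54148868 on the plus strand. The last 90 coding bases of the final coding exon before the stop codon are shown as an example of a stretch compared between the gamma genes. Capitals in the Tcrg-C1 line mark bases that differ in either of the others, and capitals in the other lines mark bases that differ from Tcrg-C1. The stretches are chr13:19216526-19216615 (plus), chr13:19305063-19305152 (minus) and chr13:19352251-19352340 (plus).
Tcrg-C1: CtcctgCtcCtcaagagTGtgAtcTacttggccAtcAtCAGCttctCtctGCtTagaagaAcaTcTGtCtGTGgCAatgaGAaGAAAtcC
Tcrg-C2: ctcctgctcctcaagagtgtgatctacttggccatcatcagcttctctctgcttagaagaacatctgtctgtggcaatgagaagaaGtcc
Tcrg-C4: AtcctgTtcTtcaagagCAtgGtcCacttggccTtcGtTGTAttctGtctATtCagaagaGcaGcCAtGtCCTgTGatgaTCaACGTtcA
Tcrg-C2 differed from Tcrg-C1 at 1 of these 90 bases, and Tcrg-C4 differed at 34. Over the whole transcripts, 157 of the 875 windows of 50 bases in Tcrg-C1 occurred unchanged in Tcrg-C2, and none occurred in Tcrg-C4. With windows of 90 bases, 15 of 835 occurred in Tcrg-C2, so the stretch shown is more alike than most of the transcript. Where the reads fell along the transcripts is not known from the counts. Counts of Tcrg-C1 and Tcrg-C2 are therefore uncertain relative to each other, since no source states how reads matching several genes were handled.

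Before any comparison, barcodes shared between libraries were counted. All 84 aged spleen cells sit at barcodes that also passed the cell filter in the young brain library, with more UMIs in the aged spleen at every one of them and a median ratio of 5.26. At 13 of these barcodes the young brain counts met the rule too. Of the 84, 1 also sits at a barcode of the aged brain library. The young spleen cells shared no barcode with another library. Leaving out shared barcodes removes every aged cell, so no value without them could be given, and their part in the results was not tested. Depth per cell was close between the libraries. The median was 5907 UMIs in aged cells (range 2878 to 13445) and 5528 in young cells (range 881 to 14484), with 1971 and 1995 genes. The median mitochondrial share was 5.48% in aged and 4.35% in young cells. The most abundant transcript, Gm42418, took 8.17% of the UMIs of aged cells and 4.56% of those of young cells, and between 1.78 and 1.94 times as large a share in aged as in young cells of the CD4 T, CD8 T, NK and B cell gates. The part of these shifts in the gene results was not tested.

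Most of the cells, but not all, carried the receptor genes that their label calls for. The rule did not use the gamma chain, and a UMI of Tcrg-C1, Tcrg-C2 or Tcrg-C4 (Tcrg-C3 had none) was found in 65 of 84 aged cells (77.4%, exact Clopper-Pearson interval 67.0 to 85.8) and in 111 of 145 young cells (76.6%, 68.8 to 83.2). The same was found in 7.57% of aged and 3.25% of young NK cells, gated as Ncr1-positive and without Cd3, at median depths of 4699 and 4059 UMIs. It was found in 6.21% and 6.76% of CD8 T cells, which have median depths of 7179 and 6373 UMIs, and in 0.248% and 0.541% of B cells. CD4 T cells differed by library, with 3.50% of aged and 19.1% of young ones. The CD4 and CD8 T cell gates required a UMI of Cd4 or Cd8b1, respectively, and no UMI of Trdc. Those cells were thus chosen to lack the delta chain transcript. After each cell was thinned to 1500 UMIs, 42.9% of aged and 46.9% of young gamma delta T cells still had a gamma constant UMI. With all UMIs, 19 aged and 34 young cells had none. A UMI of the NK cell genes Ncr1 or Klrb1c was found in 57.9% of these aged and 82.4% of these young cells. In cells with a gamma constant UMI it was found in 43.1% and 68.5%. Whether the cells without one are gamma delta T cells was not tested. Trac, the alpha chain constant gene, had a UMI in 25 of 84 aged and 29 of 145 young cells, against 93.2% and 93.3% of CD4 T cells and 7.77% and 6.65% of NK cells. Transcripts of Trbc1 or Trbc2, the beta chain constant genes, were found in 94.0% and 94.5% of cells. They were also found in 99.5% and 99.8% of CD4 T cells and in 88.2% and 81.6% of NK cells, so they separate these gates little. Foxp3, the regulatory T cell factor, was at 0 in every cell, as Cd4 and Cd8b1 are by the rule, and Cd8a was found in 0 aged and 4 young cells.

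The threshold on Trdc divided cells that resemble each other in part. Among cells that met every other criterion, a gamma constant UMI was found in 25.9% of the 27 aged cells with 1 Trdc UMI, just outside the rule, and in 66.7% of the 15 with 2, just inside it. In the young spleen the corresponding shares were 31.9% of 47 cells and 48.3% of 29 cells. With no Trdc UMI they were 18.1% of 736 aged and 30.3% of 851 young cells, of which 80.3% and 84.5% held a Trac UMI. With 4 or more Trdc UMIs the shares were 84.9% of 53 aged cells and 85.4% of 89 young cells. The median Trdc count per chosen cell was 5 UMIs in the aged (2 to 20) and 4 in the young spleen (2 to 14). These counts chose the cells and are given as a description.

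Gamma delta T cells made up 4.46% of Cd3-positive cells in the aged spleen (84 of 1882, interval 3.58 to 5.50) and 7.65% in the young spleen (145 of 1895, 6.49 to 8.94). The ratio of aged to young was 0.583 (0.440 to 0.768), and over all spleen barcodes, with shares of 1.49% and 2.10%, it was 0.708 (0.535 to 0.933). The lower share was found among cells that also carried NK receptor transcripts. Cells with a UMI of Ncr1, which encodes the activating receptor NKp46, or of Klrb1c, which encodes NK1.1, numbered 39 in the aged spleen against 104 in the young, or 2.07% and 5.49% of Cd3-positive cells, a ratio of 0.378 (0.254 to 0.550). Cells without either were 45 and 41, or 2.39% and 2.16% of Cd3-positive cells, a ratio of 1.11 (0.708 to 1.73). Requiring a gamma constant UMI as well left 28 and 76 cells with an NK receptor UMI and 37 and 35 without. NK cells were themselves fewer in the aged library, at 515 against 1384 barcodes, and free Ncr1 and Klrb1c RNA was not separated from RNA of the cells. A depth-matched count was less clear: after thinning to 1500 UMIs, 29 aged and 38 young cells still met the rule, 2.35% and 2.79% of Cd3-positive cells, a ratio of 0.844 (0.502 to 1.40), and 4 other random draws gave ratios from 0.623 to 0.937.

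**Figure D1:**
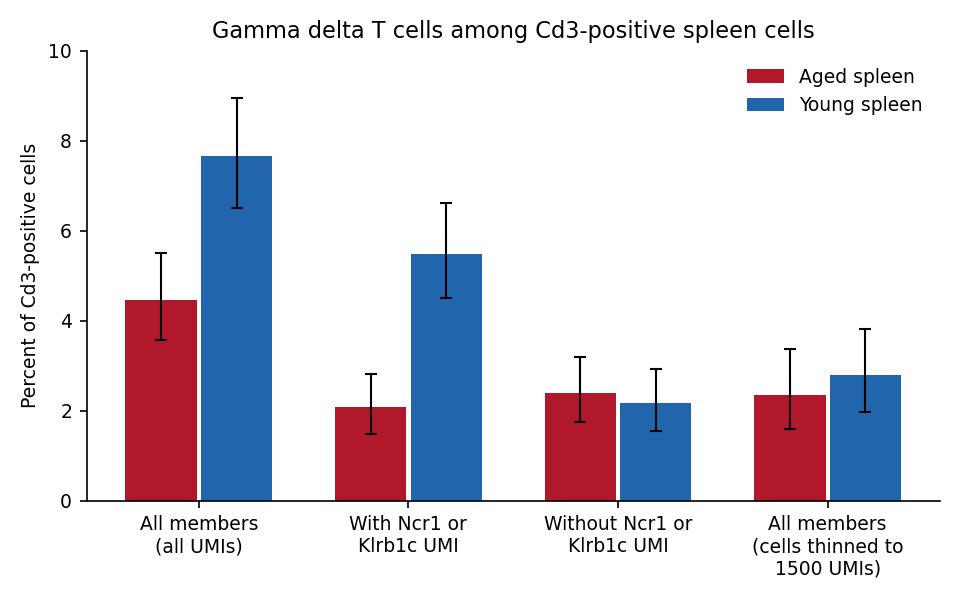
Gamma delta T cells as a percent of Cd3-positive cells (vertical axis) in the aged and young spleen libraries, for all members, for those with and without a UMI of Ncr1 or Klrb1c, and for all members after each cell was thinned to 1500 UMIs. Bars are shares of 1 library and lines are exact 95% intervals for counting error; the bars differ at 2.07% against 5.49% with an NK receptor UMI and lie at 2.39% and 2.16% without one.

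Within the gamma delta T cells, an NK receptor UMI was found in 46.4% of aged cells (35.5 to 57.6) and 71.7% of young cells (63.7 to 78.9). The ratio was 0.647 (0.436 to 0.944), and 0.456 (0.240 to 0.817) after thinning, where the shares were 17.9% and 39.2%. As a background, Ncr1 or Klrb1c was found in 3.28% of aged and 10.6% of young B cells, which lack these receptors, at median depths of 4208 and 3823 UMIs. Both shares of gamma delta T cells stood above those levels. They were not particular to gamma delta T cells, however. Among cells that met every other criterion but had no Trdc UMI, an NK receptor UMI was found in 41.8% of aged and 58.6% of young cells. With 1 Trdc UMI it was found in 63.0% and 74.5%. The share was lower in the aged library in other gates too. It was 8.57% against 34.4% in CD4 T cells, a ratio of 0.249 (0.177 to 0.346). In CD8 T cells it was 10.2% against 16.7%, a ratio of 0.615 (0.373 to 1.01), and the B cell ratio was 0.310 (0.233 to 0.408). A lower share was therefore not particular to gamma delta T cells. A cytotoxic transcript set (at least 3 UMIs over Nkg7, Ccl5, Gzma, Gzmb, Gzmk and Prf1) was found in 83.3% of aged and 96.6% of young cells, and the 2 intervals, 73.6 to 90.6 and 92.1 to 98.9, did not overlap. The interval of their ratio, 0.863 (0.638 to 1.16), held 1, but it treats the cells as rare counts and is too wide for shares this large. The cytotoxic share was lower in the aged library in CD4 T cells too, at 19.4% against 47.9%, and in B cells, at 3.63% against 8.70%. It was 66.5% and 68.0% in CD8 T cells and 99.4% and 99.3% in NK cells. At least 2 UMIs of Ly6c2 were found in 53.6% and 60.7% of gamma delta T cells, with overlapping intervals of 42.4 to 64.5 and 52.2 to 68.7. After thinning the Ly6c2 shares were 17.9% and 29.4%, a ratio of 0.608 (0.313 to 1.12). In the aged spleen 38 of the 39 cells with an NK receptor UMI and 32 of the 45 without held the cytotoxic set, against 103 of 104 and 37 of 41 in the young spleen.

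**Figure D2:**
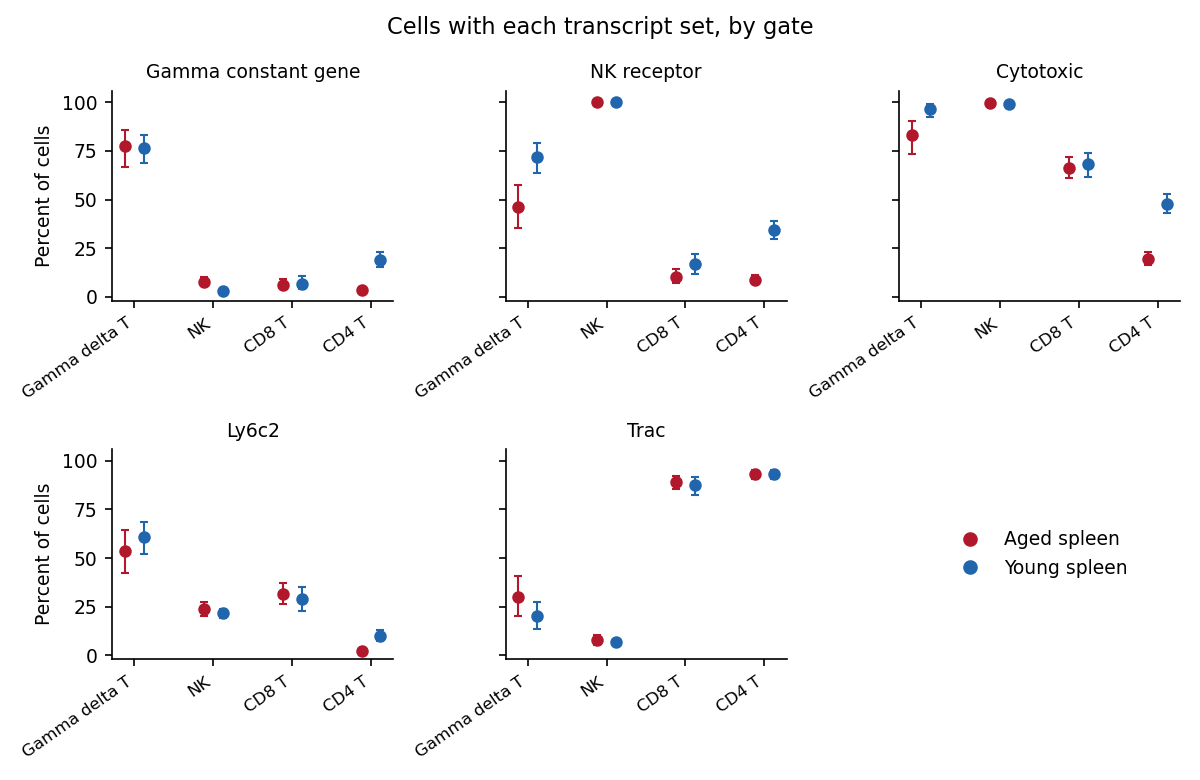
Percent of cells (vertical axis) with each transcript set in the gamma delta T, NK, CD8 T and CD4 T cell gates of the aged and young spleen, all UMIs; points are shares of 1 library and lines exact 95% intervals for counting error. Gamma delta T cells lie apart from the other T cells in gamma constant and Trac transcripts, and their NK receptor share is 46.4% for aged and 71.7% for young cells.

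Cells with the type 17 transcript Cd163l1 were few in both libraries. At least 1 UMI of it was found in 6 of 84 aged cells (7.14%, 2.67 to 14.9), with 53 UMIs, and in 5 of 145 young cells (3.45%, 1.13 to 7.86), with 39. The ratio of the shares was 2.07 and its interval ran from 0.527 to 8.58. As a background, Cd163l1 was found in 0.388% of aged and 0.145% of young NK cells. Interleukin 17A transcripts (Il17a) were found in 4 of the 6 aged cells, with 12 UMIs, and in 1 of the 5 young cells, with 3. Il23r, the interleukin 23 receptor, had 4 UMIs in 2 of the 6 and 1 UMI in 1 of the 5, and none in the remaining cells of either library. Other genes were shared by these cells. Trdv4, a delta chain variable gene, had a UMI in 5 of the 6 aged cells and 2 of the 78 others, and in 2 of the 5 young cells and 4 of the 140 others. Blk, a Src family kinase, was found in 5 of the 6 and 1 of the 78, and in 3 of the 5 and 4 of the 140. The aged cells with Cd163l1 had no UMI of Nkg7, Ly6c2 or Ifng, and 3 UMIs of Ccl5 against 3426 in the other aged cells. Tcrg-C1 was found in 5 of these 6 aged cells and Tcrg-C2 and Tcrg-C4 in 0 of them. The young ones were mixed, with 127 Ccl5 UMIs in 2 of the 5 cells and Tcrg-C4 in 3 of the 5. S100a4 was at 2885 CPM (UMIs of the gene summed over the cells, per total UMIs, the usual CPM scale) in the aged cells with Cd163l1 and 30.5 CPM in the other aged cells, and at 2443 and 107.7 CPM in the young spleen. Summed over all gamma delta T cells, 4 of 8 tested type 17 genes were 1.5-fold higher in the aged spleen (Rora, Cd163l1, Tmem176a and Icos) and 1 lower (Cxcr6), with a median log2 ratio of 0.41 that was negative in 5 alternative settings. Without the cells holding Cd163l1 it was -0.42, and Cxcr6, a chemokine receptor, went from a ratio of 0.60 to 0.17. The background shares of all genes are 9.36% higher and 10.1% lower.

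Gamma chain use was compared next. Trgv2, a gamma variable gene on the minus strand at chr13:19336573-19337167, had a UMI in 13 of 84 aged cells and 49 of 145 young cells. Its level was 32.5 CPM in aged and 82.0 CPM in young cells, a ratio of 0.40 (0.21 to 0.69), and the ratio was 0.36 in cells with an NK receptor UMI and 0.33 in cells without. Tcrg-C2 was at 79.3 and 122.4 CPM, a ratio of 0.65 (0.44 to 0.95). Tcrg-C1 was at 156.6 and 133.1 CPM, a ratio of 1.18 (0.87 to 1.59), and Tcrg-C4 was at 128.1 and 146.2 CPM, a ratio of 0.88 (0.64 to 1.20), so that neither was separated from 1. Tcrg-C1 was the only gamma constant gene found in 21 aged and 13 young cells, Tcrg-C4 the only one in 8 and 27. Of the 21 aged cells with Tcrg-C1 alone, 5 were cells with Cd163l1. In cells without Cd163l1, Tcrg-C1 was at 115.4 CPM in aged and 122.4 CPM in young cells. Tcrg-C2 was at 84.9 and 115.1 CPM there, and Tcrg-C4 at 137.2 and 144.5 CPM. Transcripts of 2 or more gamma constant genes were found in 29 aged and 62 young cells. In the young spleen, Trgv2-positive cells held Tcrg-C2 in 27, Tcrg-C4 in 28 and Tcrg-C1 in 25 of 49 cases. Of the 17 young cells with Tcrg-V1, 16 held Tcrg-C4, 9 Tcrg-C2 and 8 Tcrg-C1. In the aged spleen, each of the 3 constant genes was found in 7 of the 13 Trgv2-positive cells. Of the 9 aged cells with Tcrg-V1, 5 held Tcrg-C4, 4 Tcrg-C2 and 6 Tcrg-C1. Tcrg-V4 was found in 1 aged and 6 young cells and Tcrg-V6 in 2 and 3.

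Gene levels were compared as UMIs summed over the cells of each library, 491696 for aged and 841332 for young cells. Of 3664 genes with at least 50 UMIs over both, 343 (9.36%) were at least 1.5-fold higher in the aged cells and 369 (10.1%) were at least 1.5-fold lower, 712 (19.4%) in all. These are the shares against which the lists below are read. The median log2 ratio over all tested genes was -0.04. No gene carries a p-value, since each group is 1 library.

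**Figure D3:**
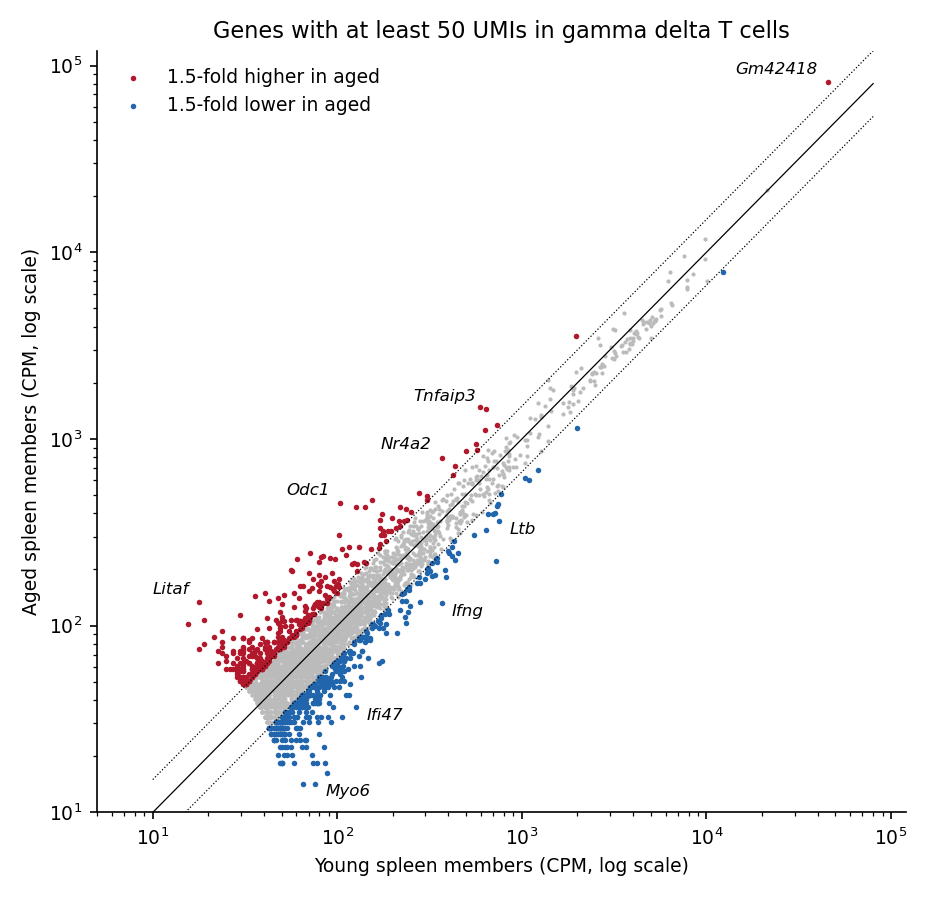
Level of each tested gene in gamma delta T cells of the young spleen (horizontal axis, CPM, log scale) and aged spleen (vertical axis, CPM, log scale), 1 point per gene. Solid and dotted lines mark equality and a 1.5-fold difference; 343 genes lie above the upper dotted line, among them Litaf, Odc1 and Tnfaip3, and 369 below the lower one, among them Ifng, Ltb and Ifi47.

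The type 1 and cytotoxic programme was lower in the aged cells. None of its 23 tested genes was 1.5-fold higher and 13 were 1.5-fold lower, with a median log2 ratio of -0.65. Ifng, which encodes interferon gamma, had a UMI in 32.1% of aged and 66.9% of young cells and was at 132.2 CPM against 367.3 CPM, a ratio of 0.36 (0.27 to 0.47). Single aged cells held 0 to 8 Ifng UMIs with a median of 0, and young cells 0 to 19 with a median of 1. The ranges overlapped from 0 to 8 UMIs. Cxcr3, the chemokine receptor of type 1 cells, was at 32.5 and 105.8 CPM, a ratio of 0.31 (0.17 to 0.53). Tbx21, which encodes T-bet, had a ratio of 0.53 (0.31 to 0.87), whereas its relative Eomes was at 185.1 and 151.0 CPM, a ratio of 1.23 (0.93 to 1.62). Xcl1, a chemokine that attracts dendritic cells, was at 400.7 and 710.8 CPM, a ratio of 0.56 (0.48 to 0.66). Prf1, the pore protein perforin, had a ratio of 0.54 and Nkg7, a granule protein, 0.60 (0.52 to 0.68). Ccl5, the most abundant chemokine here, was at 6974 and 10050 CPM, a ratio of 0.69 (0.67 to 0.72) that does not pass 1.5-fold.

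The same list was also read with the cells split by NK receptors, since fewer aged cells carried them. Among cells with an NK receptor UMI, 8 of 23 tested genes were lower, against 13.4% of all genes tested in those cells, and 0 were higher, against 9.10%, with a median log2 ratio of -0.39. Among cells without one, 11 of 15 were lower, against 11% of all genes tested there, and 0 were higher, against 11.9%, with a median of -0.73. Ccl5 had a ratio of 0.86 (0.82 to 0.90) in the former and 0.57 (0.53 to 0.61) in the latter. Xcl1 had a ratio of 0.63 in both. Cxcr3 had ratios of 0.34 and 0.24. The median of the list in the other gates was -0.35 in NK cells, 0.11 in CD8 T cells and -1.26 in CD4 T cells. Whether the gates differ could not be tested with 1 library each.

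Of 13 tested NK cell genes, 9 were 1.5-fold lower in the aged gamma delta T cells and 0 were higher, with a median log2 ratio of -0.73. The list was closer to even among cells with an NK receptor UMI, where 2 of 10 genes other than Ncr1 and Klrb1c were lower, 1 was higher and the median was -0.15. Among cells without one, only 4 could be tested, of which 3 were lower, with a median of -1.36. Ncr1 was found in 12 of 84 aged and 36 of 145 young cells, at 42.7 and 115.3 CPM, a ratio of 0.37 (0.22 to 0.60). Klrb1c had a ratio of 0.60 (0.46 to 0.78). The signalling adaptors that pair with such receptors were lower too: Fcer1g was at 325.4 and 641.8 CPM, a ratio of 0.51 (0.42 to 0.61), and Tyrobp at 235.9 and 419.6 CPM, a ratio of 0.56 (0.45 to 0.70). In cells with an NK receptor UMI, Tyrobp had a ratio of 0.90 (0.71 to 1.13), and in those without 0.24 (0.12 to 0.48). Klra7, an NK cell lectin receptor, had a ratio of 1.04. Other members rested on few cells. Gzma, a granzyme, was found in 8 aged and 47 young cells, with a ratio of 0.31. The 34 young cells without a gamma constant UMI held 387 of the 610 young Gzma UMIs, and with such a UMI required the ratio was 0.73 (0.57 to 0.94). The Gzma ratio turned to 5.08 in cells without an NK receptor UMI. That value rests on 32 UMIs in 4.44% of 45 aged cells and 5 UMIs in 12.2% of 41 young cells. Klra4 was found in 3 aged cells, with 66.7% of its UMIs in 1, and turned from 0.21 to 1.75 when a gamma constant UMI was required. The 16 NK genes summed to 1710 CPM in aged and 3185 CPM in young gamma delta T cells, and to 1543 and 4593 CPM in nearly empty barcodes of the same libraries. The 8 B cell genes outside the rule, which T cells lack or hold at low levels, stood in the gamma delta T cells at 4.80% and 4.75% of their level in nearly empty barcodes. At those percents free RNA would bring 74.1 and 218.4 CPM of NK genes. The rule had already limited Cd79a and Ms4a1 in these cells, so the percents can be too low. The part of free RNA in the NK gene levels was not tested.

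Immediate early genes were higher in the aged cells. Of 22 tested, 10 were 1.5-fold higher and 2 lower, with a median log2 ratio of 0.48. The orphan nuclear receptors of the Nr4a family, induced by receptor signalling, were higher together: Nr4a1 at 376.2 and 197.3 CPM, a ratio of 1.91 (1.54 to 2.37), and Nr4a2 at 793.2 and 368.5 CPM, a ratio of 2.15 (1.85 to 2.51). Nr4a3 was found in 63.1% of aged and 22.8% of young cells, with a ratio of 3.76 (2.68 to 5.34). The AP-1 genes differed in direction. Fosl2 had a ratio of 3.06 (2.44 to 3.87), Maff, a small Maf protein, 4.05 (2.61 to 6.43) and Junb 1.80 (1.69 to 1.93). Fos, by contrast, was at 394.6 and 696.5 CPM, a ratio of 0.57 (0.48 to 0.67), and Jun was at 1.23 (1.08 to 1.41). Myc had a ratio of 0.54, and Cd69, an early activation antigen, was at 695.6 and 734.5 CPM, a ratio of 0.95 (0.83 to 1.08). The list's median was 0.61 in NK, 0.33 in CD8 T and 0.49 in CD4 T cells, so the higher level was seen in all 4 gates.

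A list of NF-kB subunits, their inhibitors and other feedback regulators had 11 of 17 tested genes 1.5-fold higher and 0 lower, with a median log2 ratio of 0.65. Tnfaip3, which encodes the deubiquitinase A20 that limits NF-kB signalling, was found in 96.4% of aged and 84.1% of young cells. Single aged cells held 0 to 33 Tnfaip3 UMIs with a median of 8, and young cells 0 to 17 with a median of 3. Its level was 1442 and 641.8 CPM, a ratio of 2.25 (2.01 to 2.52). The inhibitors Nfkbia, Nfkbid, Nfkbie and Nfkbiz had ratios of 1.61, 2.34, 3.24 and 1.97. Among the subunits, Relb had a ratio of 2.07 (1.16 to 3.71) and Rel 1.57 (1.14 to 2.16). Dusp1 and Dusp2, phosphatases that act on MAP kinases, had ratios of 0.83 and 0.94. The median was 0.68 in cells with an NK receptor UMI and 0.65 in cells without, and 0.54 in NK, 0.70 in CD8 T and 0.32 in CD4 T cells.

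**Figure D4:**
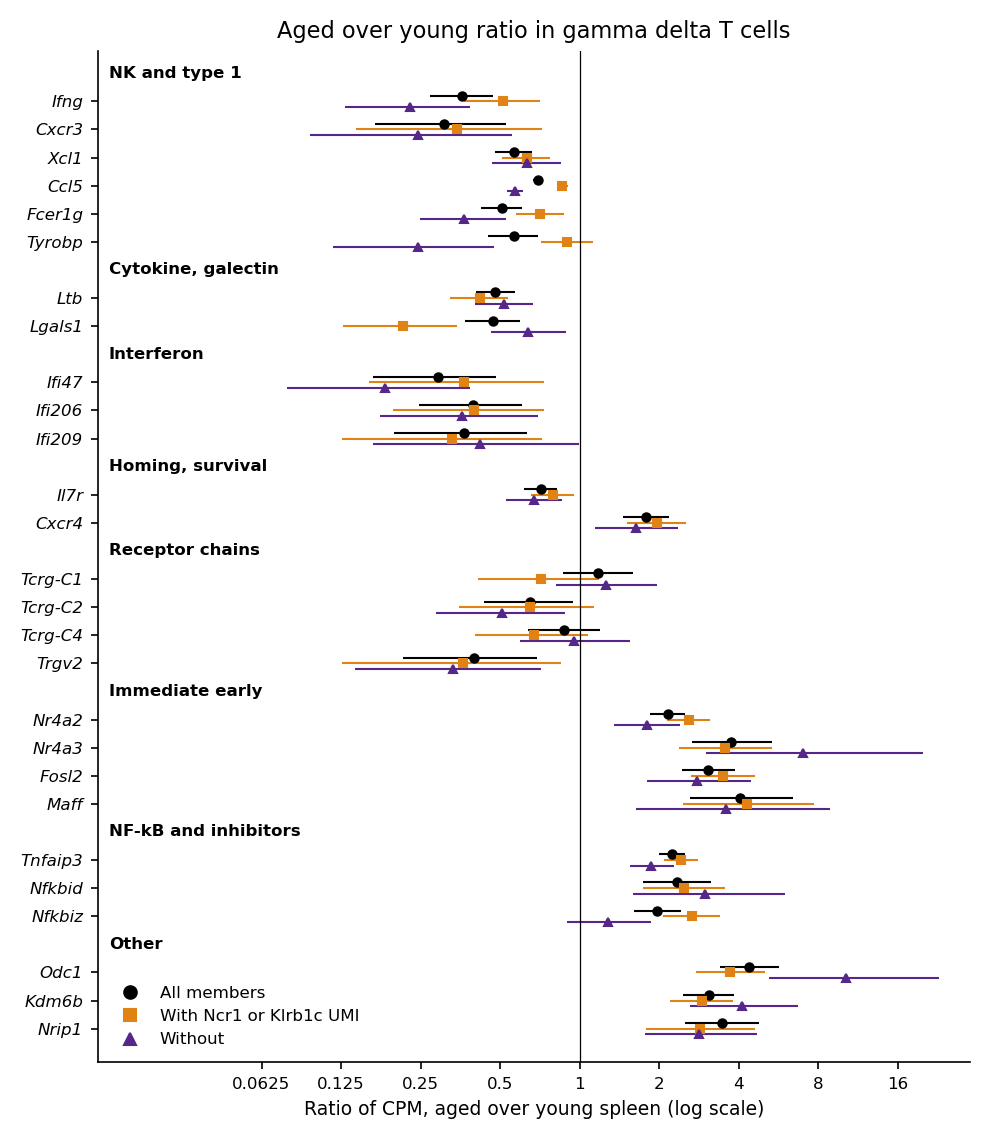
Ratio of summed CPM, aged over young spleen (horizontal axis, log scale), for genes named in the text, grouped by role, in all gamma delta T cells and in those with and without a UMI of Ncr1 or Klrb1c. Symbols are ratios of 1 library to 1 library and lines exact 95% intervals for counting error; Ifng, Cxcr3 and Ltb lie below 1 and Nr4a2, Nr4a3 and Tnfaip3 above 1 in each of the 3 sets.

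Several of the genes with the most separated ratios belong to none of these lists. Litaf, an endosomal membrane protein, was found in 38 of 84 aged and 14 of 145 young cells and was at 134.2 and 17.8 CPM, a ratio of 7.53 (4.25 to 14.2). The same gene had ratios of 4.32 in NK, 6.06 in CD8 T and 2.18 in CD4 T cells. Odc1, the first enzyme of polyamine synthesis, was at 453.5 and 103.4 CPM, a ratio of 4.39 (3.41 to 5.69), against 2.36 to 2.75 in those 3 gates. Kdm6b, a histone H3 lysine demethylase, was found in 88.1% and 46.9% of cells, with a ratio of 3.08 (2.47 to 3.85). Dusp10, a phosphatase of MAP kinases, had a ratio of 5.67, and the transcriptional regulators Klf9, Tgif1 and Nrip1 had ratios of 3.72, 3.57 and 3.45. Hspa1b, a heat shock chaperone, had a ratio of 3.46, but 1 aged cell held 50.5% of its UMIs, and without the cells holding Cd163l1 the ratio was 1.90 (1.24 to 2.92). Tmem176a, a gene of type 17 cells, had a ratio of 6.58 and was found in 8 aged and 6 young cells, with 45 of its 50 aged UMIs in the 6 cells with Cd163l1, and the ratio without them and the 5 young ones was 1.78 (0.41 to 7.73).

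On the lower side, Ltb, which encodes lymphotoxin beta, was found in 71.4% of aged and 93.8% of young cells. Its median was 1.5 UMIs per aged cell (0 to 18) and 4 per young cell (0 to 16), and its level 362.0 and 753.6 CPM, a ratio of 0.48 (0.40 to 0.57). Ltb had a ratio of 0.47 in B cells, 0.50 in CD4 T, 0.61 in CD8 T and 0.77 in NK cells. Lgals1, a galectin, was at 183.0 and 389.9 CPM, a ratio of 0.47 (0.37 to 0.59), and at 0.21 in cells with an NK receptor UMI against 0.64 in those without. The 6 aged cells with Cd163l1 held 44 of the 90 aged Lgals1 UMIs. Leaving out the cells with Cd163l1 in both libraries gave 100.2 and 363.6 CPM, a ratio of 0.28 (0.20 to 0.38), with 0.22 and 0.34 in cells with and without an NK receptor UMI. Myo6, a motor protein, had 7 aged and 64 young UMIs, a ratio of 0.19 (0.07 to 0.41). Clec2d, a ligand of the NK receptor family, had a ratio of 0.38 (0.25 to 0.56), and Cln3, Rflnb, Arl4d, Ikbke and Fam120a had ratios from 0.22 to 0.33.

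Interferon-induced genes were lower in the aged cells, with 8 of 16 tested genes 1.5-fold lower, 1 higher and a median log2 ratio of -0.61. Ifi47, an interferon-inducible GTPase, was found in 19.0% of aged and 51.0% of young cells, at 36.6 and 126.0 CPM, a ratio of 0.29 (0.17 to 0.48). The DNA-binding proteins Ifi206 and Ifi209 had ratios of 0.39 and 0.37, and Ifi27l2a 0.33 (0.17 to 0.61). Irf7, a transcription factor of the response, was at 52.9 and 30.9 CPM, a ratio of 1.71 (0.95 to 3.07), and Irf1 had a ratio of 0.96. The list's median was -0.60 in NK cells, -0.54 in CD4 T and -0.24 in CD8 T cells.

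Homing and cytokine receptors divided by gene. Of 17 homing and integrin genes, 7 were 1.5-fold lower and 2 higher, with a median log2 ratio of -0.53 that was 0.04 on thinned counts. Ccr7, the lymph node homing receptor, had a ratio of 1.78 (1.17 to 2.72) and Cxcr4 1.79 (1.47 to 2.18). The integrin subunit Itgb2 had a ratio of 0.64 (0.51 to 0.80). Among 13 cytokine receptor genes 4 were higher and 1 lower. Il21r was at 140.3 and 47.5 CPM, a ratio of 2.95 (1.97 to 4.47), Il6st, the shared subunit gp130, had a ratio of 3.25 and Il4ra 2.13. Il18rap, the accessory chain of the interleukin 18 receptor, was at 91.5 and 210.4 CPM, a ratio of 0.44 (0.31 to 0.61), and Il7r at 557.3 and 780.9 CPM, a ratio of 0.71 (0.62 to 0.82).

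**Figure D5:**
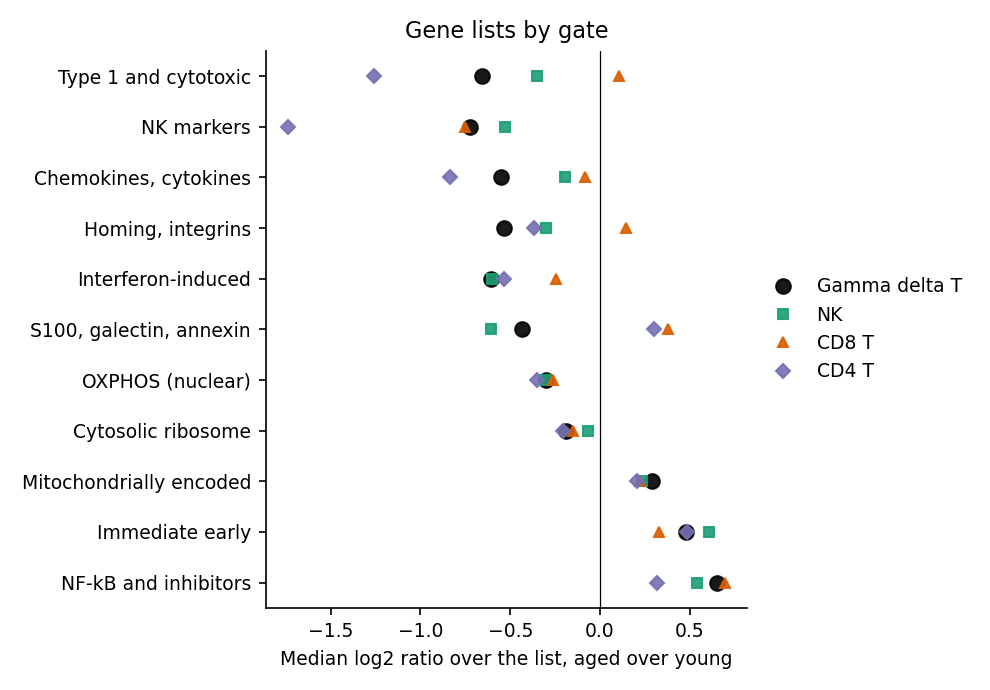
Median log2 ratio of aged over young spleen (horizontal axis) over the tested genes of each list (vertical axis) in gamma delta T, NK, CD8 T and CD4 T cell gates, 1 library per age. In gamma delta T cells the type 1 and cytotoxic median lies at -0.65 and that of NF-kB genes at 0.65, and the interferon-induced, immediate early and NF-kB medians have the same sign in all 4 gates.

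Chemokine and cytokine genes, some of them also in the type 1 list, had 3 of 8 lower and 0 higher, with a median log2 ratio of -0.55. S100, galectin and annexin genes had 1 of 11 lower and a median of -0.44, which was -0.71 without the cells holding Cd163l1. T cell receptor signalling genes had 1 of 12 higher and 0 lower, with a median log2 ratio of 0.02, and naive and memory genes 1 of 13 higher and 0 lower, also at 0.02. Of 69 nuclear genes of oxidative phosphorylation 10 were lower and 0 higher, with a median of -0.30, near the -0.30 of NK, -0.26 of CD8 T and -0.35 of CD4 T cells. Mitochondrially encoded genes had a median of 0.29, with 1 of 12 lower. Of 80 cytosolic ribosome genes 1 was lower, with a median of -0.19. The cell cycle inhibitor Cdkn1a was at 93.5 and 23.8 CPM, a ratio of 3.94 (2.28 to 7.02), and Gadd45b, a stress-induced gene, had a ratio of 2.15, while Trp53 had a ratio of 0.60 (0.39 to 0.91). Of 4 tested B cell genes, 2 were 1.5-fold higher in the aged cells and 0 lower, with a median of 0.85. Igkc, the kappa light chain, was found in 91.7% of aged and 49.7% of young cells at 431.2 and 126.0 CPM, a ratio of 3.42 (2.70 to 4.36), and Cd74, the invariant chain, had a ratio of 2.49 (1.74 to 3.57). Ighm, the mu heavy chain, and H2-Aa, an MHC class II chain, had ratios of 1.22 (0.97 to 1.52) and 1.31 (0.73 to 2.34). H2-Aa was at 2.91 (1.31 to 6.51) in cells with an NK receptor UMI and 0.40 (0.15 to 0.98) in cells without, on 15 and 14 UMIs and 8 and 16 UMIs. The 10 B cell genes, of which none was at 0, summed to 21194 CPM in nearly empty aged barcodes and 11209 CPM in young ones. The myeloid sum per cell was 0 to 941 CPM in aged and 0 to 1703 CPM in young cells, and Csf3r was at 0 in both. The 3 tested genes of the erythroid and plasma cell list, all haemoglobin genes, were lower in summed UMIs, with a median of -1.42. A single young cell held 91.2% of the young UMIs of Hbb-bs. By cells, Hbb-bs was found in 28.2% of aged and 5.77% of young cells with an NK receptor UMI, and in 31.1% and 9.76% without. Hba-a1 was found in 17.9% and 2.88%, and 17.8% and 4.88%, and Hbb-bt in 5.13% and 6.73%, and 13.3% and 2.44%. The list summed to 5035 CPM in nearly empty aged barcodes and 1536 CPM in young ones.

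Levels in gamma delta T cells were also set beside other lymphocytes of the same library, as a description. Against CD8 T cells, Fcer1g was 7.44 times as high in the aged and 8.80 times in the young spleen, and Spry2, an inhibitor of receptor tyrosine kinase signalling, 8.27 and 7.01 times. Dapl1, Ccr7 and Lef1, genes of resting CD8 T cells, were lower, with Lef1 at 0.39 and 0.30 of the CD8 T cell level. Against NK cells, Bcl11b, a T lineage transcription factor, was 11.6 and 9.94 times as high and Il7r 4.47 and 8.34 times. Gzma was at 0.06 of the NK cell level for aged and 0.10 for young cells, and the chemokine Ccl3 at 0.06 in both. The NK gate also held S100a8 at 1485 and 819 CPM, a granulocyte transcript, so its levels include RNA of other cells.

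The authors' deposited table for the aged spleen listed Trdc for cluster 2 of 15, with 25.4% of the cluster's cells and 2.5% of other cells positive. The authors' deposited table for the young spleen listed Trdc for cluster 1, at 32.5% against 4.8%, and cluster 7, at 34.6% against 9.4%, of 16 clusters. Tcrg-C2 was listed for cluster 3 in the authors' deposited table for the young spleen, at 25.4% against 2.0%. Tcrg-C4 was listed there for cluster 3, at 25.4% against 2.5%, and for cluster 13, at 40.5% against 3.7%. The cells of those clusters were not matched to the cells counted here.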

How the data were processed

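Raw UMI counts per gene and barcode were deposited by the authors, unfiltered, with 31053 genes and 6794880 barcodes per library; the software version is 3.1.0 per the file headers. By contrast, Cell Ranger 1.3.1 and the human build GRCh38 stand in the submitters' processing notes, while the gene identifiers are of mouse. How reads matching several genes were counted is not stated. The authors' deposited cluster tables hold a log ratio (taken as natural log), fractions of positive cells and p-values; only the fractions were printed.

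The rule's cells and the gene lists were chosen with earlier results of these data known. UMIs were summed over cells per library and scaled to CPM with Python 3.11.15, numpy 2.4.6, scipy 1.17.1 and pandas 2.3.3. Ratios carry exact conditional binomial intervals and shares exact Clopper-Pearson intervals, at 95%. For ratios of shares, these intervals treat the cells as rare counts and are too wide where a share is large. With 1 library per group no test was run; a gene counted as called past 1.5-fold with at least 50 UMIs over both libraries, leaving out the rule's genes. Whole libraries held 40628623 (aged) and 39866955 (young) UMIs. Named genes were the 12 each way with the most separated interval, leaving out immunoglobulin, receptor variable, haemoglobin, ribosomal, mitochondrial and sex genes, unnamed models and likely RNA of other cells, plus up to 4 genes per list and all receptor, type 17 and NK genes; a few further list members were chosen after their values were seen, as were Gm42418 and the split by Cd163l1. Some named genes and the cell groups that rest on them are not reported here. Doublets were not removed in the values given; Scrublet, run in scanpy 1.11.5 as an alternative, marked 2 aged and 6 young gamma delta T cells. Thinning drew 1500 UMIs per cell without replacement and left out 0 aged and 2 young cells with fewer. Other alternatives were the UMI and mitochondrial limits, the Trdc threshold, required or excluded receptor UMIs, scaling and the minimum count per gene. The scripts were tested on simulated data.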

Additional observations from a re-analysis of the deposited data

Results flagged for a closer look

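The rule for gamma delta T cells was also met by 16 barcodes of the young brain library and 3 of the aged brain library, which the spleen comparison does not use. Of the 16 young brain barcodes, 13 are barcodes of aged spleen gamma delta T cells, each with more UMIs in the aged spleen. The 3 aged brain barcodes are not among those of the spleen cells. Nothing further was measured on these brain barcodes.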

How the results depend on the processing

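The share of Cd3-positive cells, a ratio of 0.583, turned to 1.11 without cells holding Ncr1 or Klrb1c UMIs, and moved to 0.844 on thinned counts and, with 4 other random draws chosen after seeing the data, was between 0.623 and 0.937, past its interval in 1 of them. The share of all barcodes, 0.708, turned to 1.34, moved to 0.938 and in the draws ran from 0.665 to 1.04, above 1 in 1 of them. The count of genes higher, 343, and lower, 369, was 153 and 141 without NK receptor cells, 138 and 143 with at least 100 UMIs, 841 and 919 with at least 20, and 84 and 104 on thinned counts, where fewer cells or genes enter. Lists with a median past 0.3 either way numbered 14, against 9 without NK receptor cells and 7 on thinned counts. Without NK receptor cells Cenpa turned to 0.793, Gzma to 5.08, Hba-a1 to 3.57, Hbb-bs to 3.77, Hbb-bt to 4.76 and Nlrc5 to 0.980. The Gzma value rests on few cells, with a UMI in 4.44% of aged and 12.2% of young ones. Klra4 turned to 1.75 with a gamma constant UMI required. Klra8 turned to 1.01 without doublets, 1.16 and 1.59 at Trdc thresholds of 1 and 3, and 1.02 at a mitochondrial limit of 5%. Klre1 turned to 1.05 and the homing list to 0.0378 on thinned counts. The type 17 list, 0.41, turned to -0.22 without NK receptor cells, -0.00146 at a Trdc threshold of 1, -0.24 with at least 100 UMIs, -0.39 at a mitochondrial limit of 5% and -0.42 without cells holding Cd163l1, a setting chosen after seeing the data. The cause of these turns was not tested. The NK receptor ratio within the cells ran from 0.456 to 0.769 over 9 alternatives. Over their alternatives the medians ran from -0.80 to -0.48 for type 1 genes, 0.34 to 0.52 for immediate early genes, 0.42 to 0.71 for NF-kB genes and -1.22 to -0.53 for interferon genes. Without NK receptor cells Litaf was at 22.2 (1 young UMI) and Nr4a3 at 7.01. Over all alternatives 1404 of 1529 values of single genes were within counting error of the main ones, 113 moved and 12 turned. Leaving out shared barcodes gave no value, as no aged cell was left. Depth limits single genes with few UMIs most. No paired analysis was possible because each group is 1 library.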
